A study of Rattus norvegicus with 6 samples.

Results

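The core circadian clock was followed through 10 genes in healed rat Achilles tendon: Nr1d1, Nr1d2, Dbp, Per1, Per2, Per3, Cry1, Arntl, Clock and Npas2. They were taken by gene symbol from the 37991 genes listed, and all 10 passed the filter on low counts. RNA-seq was performed on 6 tendon libraries of male Sprague-Dawley rats. All animals were 8 weeks old when they underwent open Achilles tenotomy. The labels name a repair, and the methods describe closure of the skin alone. The PM group (n = 3) was exposed over 6 weeks, on 3 occasions per week, to inhaled fine particulate matter (PM2.5), whereas the non-PM group (n = 3) had no such exposure. Neither group was a native, uninjured tendon. The labels do not name the animal of each library, while the methods describe 1 operated leg per rat and 3 tendons per group. The hour at which tendons were taken was not given in the sources used here.

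The circadian clock is a feedback loop of transcription factors. The ARNTL (BMAL1) protein pairs with CLOCK or NPAS2 and binds E-boxes to switch on the Per, Cry, Nr1d and Dbp genes, whose PER and CRY proteins block that pair while the REV-ERB proteins made from Nr1d1 and Nr1d2 repress Arntl through RORE sites. In peripheral tissues of nocturnal rodents, Arntl, Clock and Npas2 transcripts peak around light onset, Nr1d1 around the middle of the light phase, and Dbp and the Per genes from late day to dusk. Such a clock runs in mouse tendon fibroblasts, where it is known to set the timing of collagen secretion.

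Nr1d1 and Nr1d2, the paralogous REV-ERB repressors, were the members that stood higher in the PM group, 2.34-fold and 1.48-fold. The activators Arntl and Clock and the output factor Dbp lay close to their non-PM levels, and Per1 and Cry1 had lower means with overlapping libraries. In edgeR's quasi-likelihood test, 0 of 18134 genes tested passed a Benjamini-Hochberg adjusted p of 0.05 (0% of genes). The smallest adjusted p in that test was 0.942, which Nr1d1 and Nr1d2 shared with many other genes, Per1, Per3 and Cry1 among them. At an unadjusted p under 0.05 there were 537 genes, and DESeq2 called 13 genes after adjustment. Genes counted as higher or lower here are therefore those past the relaxed criterion of an unadjusted p under 0.05 with a fold of at least 1.2. Differences that did not pass it are given as a description. Of the 10 members, 2 were higher in the PM group by that criterion, 0 were lower and 8 did not pass, where 1.47% of all genes tested were higher, 1.49% were lower and 2.96% passed in either direction. The median log2 fold change was 0.08 over the 10 members and -0.00 over all genes tested.

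Levels are given per library as CPM, read counts scaled by library total and by TMM factors so that libraries can be compared, and changes as log2 fold change of PM over non-PM.

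**Figure D1:**
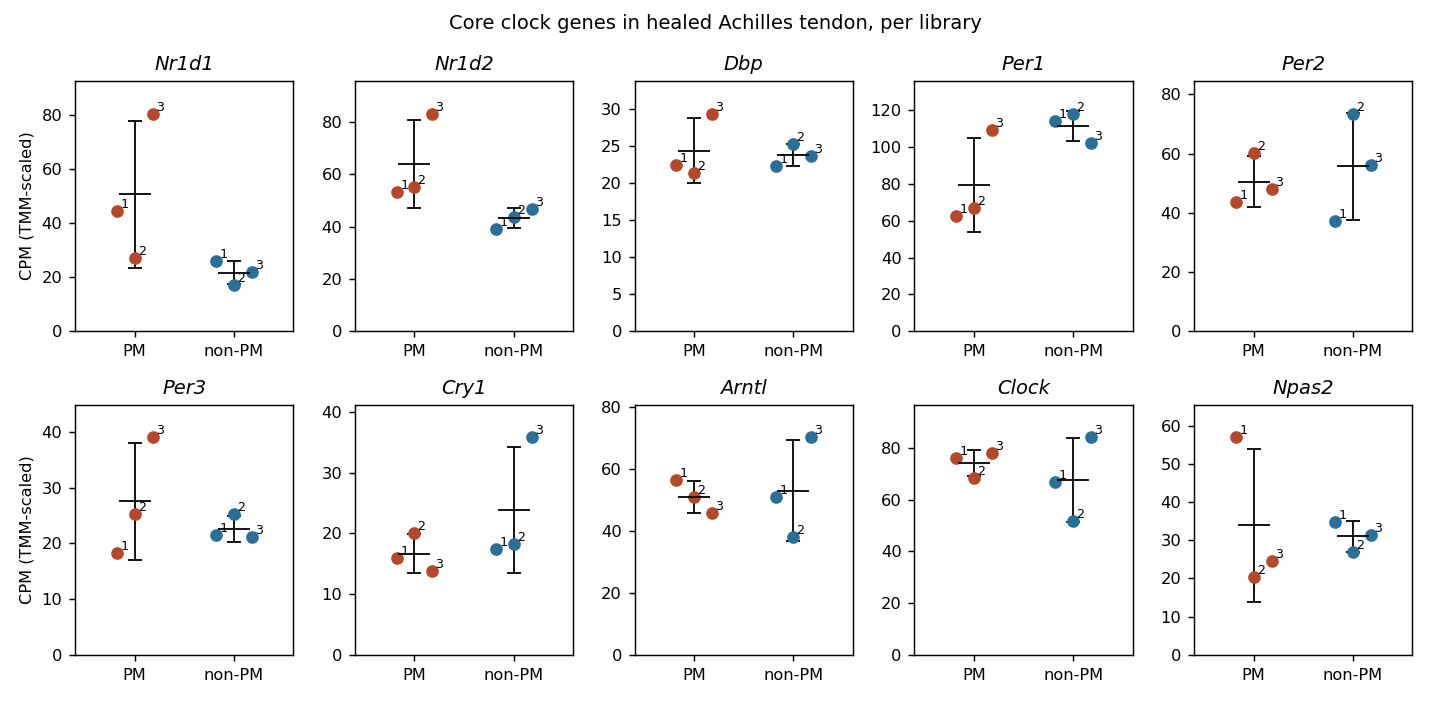
TMM-scaled CPM (vertical axis from 0) of the 10 core clock genes in the 3 PM libraries (red) and the 3 non-PM libraries (blue), with replicate numbers beside the points and bars for the mean and SD. Nr1d1 and Nr1d2 lie above all non-PM libraries in every PM library, with PM 3 highest at 80.6 and 83.2 CPM.

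The libraries held 46357986 to 62298837 counts. Tendon markers (10 genes, such as Scx, Tnmd and Col1a1) took 3.87% to 7.73% of counts in the PM libraries, against 0.606% to 6.77% in the non-PM libraries. Skeletal muscle markers (25 genes) took 3.47% to 9.10% in the PM libraries and 2.52% to 12.02% in the non-PM libraries. The non-PM 3 library stood apart, with the lowest tendon share and the highest muscle share, and the non-PM 2 library held keratinocyte transcripts at 0.0432% of counts, against at most 0.00113% elsewhere. Of the skeletal muscle markers, 3 of 25 were higher in the PM group by the relaxed criterion (the fast-fibre genes Actn3, Myh1 and Myh4) and 0 were lower. Over all genes tested, 1.47% were higher and 1.49% were lower. None of the muscle markers had groups that did not overlap, and their median log2 fold change was 0.37. In bulk tissue such as this, fewer cells of a type and less RNA per cell cannot be told apart.

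Nr1d1 (gene ID 252917) encodes REV-ERBα, the haem-binding nuclear receptor that represses Arntl. It was measured at 44.6, 27.2 and 80.6 CPM in PM 1, 2 and 3, against 25.9, 17.2 and 22.0 CPM in non-PM 1, 2 and 3. The groups did not overlap, although the lowest PM library and the highest non-PM library were close and the PM libraries spread widely. Its mean was 50.8 ± 27.2 CPM in the PM group and 21.7 ± 4.38 CPM in the non-PM group (SD, n = 3 each). The log2 fold change was 1.23 ± 0.40 (SE), with an unadjusted p of 0.0194 and an adjusted p of 0.942 in edgeR's quasi-likelihood test. Among all genes tested, 9.68% had groups that did not overlap, 4.77% with the PM group above and 4.91% with it below.

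The Nr1d1 difference rested in part on single libraries. Without PM 3 it was 0.73 on the log2 scale (unadjusted p = 0.0520, edgeR), and without non-PM 2 it was 1.09 (unadjusted p = 0.0551, edgeR). Without the non-PM 3 library it remained at 1.22 (unadjusted p = 0.0442, edgeR), and with the skeletal muscle share as a covariate at 1.23 (unadjusted p = 0.0307, edgeR). Nr1d1 overlaps the gene Thra on the opposite strand in a later assembly's annotation. The libraries were made with a stranded kit, but the sources used here do not give whether strand was used in counting. Thra, the thyroid hormone receptor α gene, had 74.7, 67.6 and 79.8 CPM in the PM libraries, against 71.6, 70.2 and 77.9 CPM in the non-PM libraries, a log2 fold change of 0.02 ± 0.14 (SE). The Thra groups overlapped throughout and their range was far narrower than that of Nr1d1.

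Nr1d2 (259241) encodes REV-ERBβ, which acts alongside REV-ERBα at the same RORE sites. It was measured at 53.1, 55.3 and 83.2 CPM in PM 1, 2 and 3, against 39.3, 43.6 and 46.9 CPM in non-PM 1, 2 and 3. As for Nr1d1, PM 3 was the highest library and every PM library lay above every non-PM library. The log2 fold change was 0.56 ± 0.21 (SE; unadjusted p = 0.0340, edgeR), or 63.9 ± 16.8 CPM in the PM group and 43.3 ± 3.80 CPM in the non-PM group (SD). It no longer passed the criterion without PM 3 (0.33, unadjusted p = 0.0959, edgeR), without non-PM 1 (0.49, unadjusted p = 0.112, edgeR), without non-PM 2 (0.57, unadjusted p = 0.0674, edgeR) or with the muscle covariate (0.52, unadjusted p = 0.0597, edgeR), while it was 0.61 (unadjusted p = 0.0436, edgeR) without non-PM 3.

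**Figure D2:**
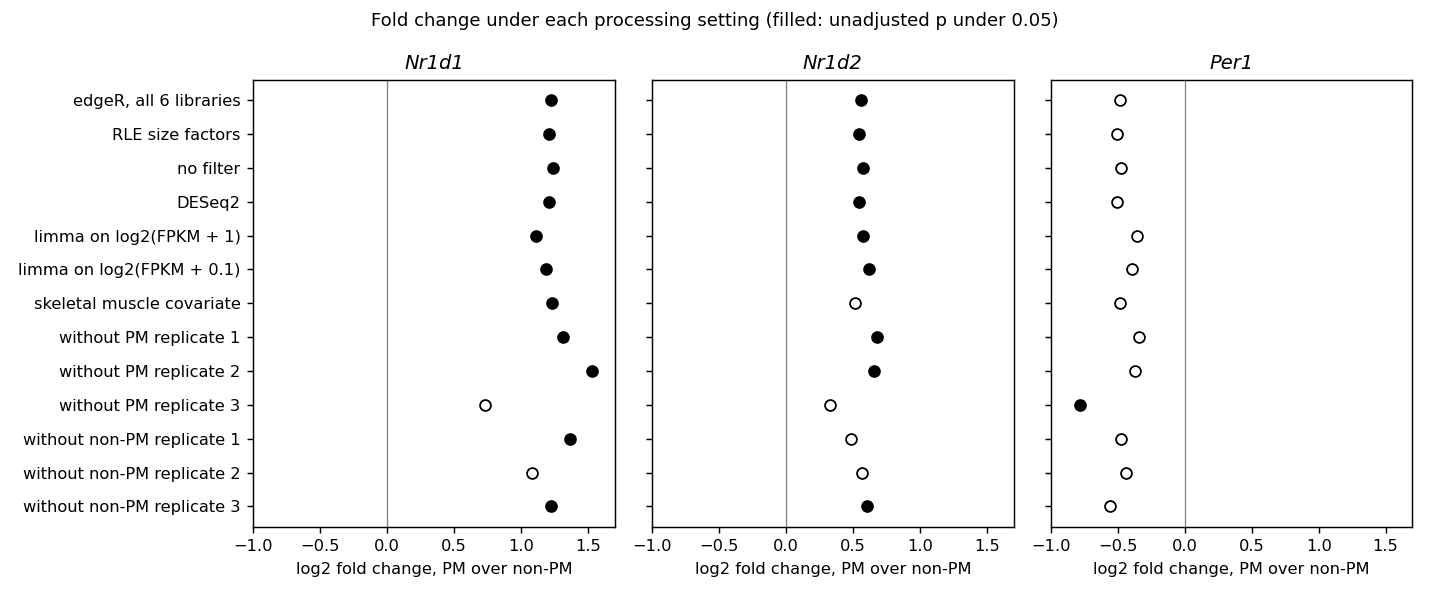
Log2 fold change (PM over non-PM, horizontal axis) of Nr1d1, Nr1d2 and Per1 in the fit of all 6 libraries and under alternative processing or with 1 library left out, filled where the unadjusted p was under 0.05. The fit with a replicate block is not shown. Nr1d1 and Nr1d2 stay above 0 in all settings shown and are smallest without PM 3 (0.73 and 0.33), where Per1 is at its lowest (-0.78).

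Like Nr1d1 and Nr1d2, the summed fat cell markers were highest in PM 3, and so were the summed tendon markers (7.73% of counts). Of the 12 adipocyte markers, 2 were higher in the PM group by the relaxed criterion (1.47% of all genes tested), Lipe (hormone-sensitive lipase) and Gpd1. The median log2 fold change over the list was 0.89, and none of the 12 was at 0 in all libraries. Their summed share of counts was 0.103% to 0.326% in the PM libraries, with PM 3 highest, and 0.0622% to 0.142% in the non-PM libraries. Gpd1 had 41.0, 224.6 and 242.6 CPM in PM 1, 2 and 3, against 59.0, 57.6 and 62.1 CPM in non-PM 1, 2 and 3. Its groups overlapped, with PM 1 the lowest library. The fast-fibre genes Actn3 (2.75, 1297 and 984 CPM) and Myh4 (26.9, 6343 and 6016 CPM in PM 1, 2 and 3) were likewise low in PM 1 alone of the PM libraries. Adipoq, another adipocyte marker, had 68.6, 105.6 and 258.5 CPM in PM 1, 2 and 3, against 27.3 to 87.1 CPM in the non-PM libraries. Whether the Gpd1 difference came from fat cells or from muscle was not tested. Of 12 endothelial markers, 2 (Cdh5 and Tek) were higher in the PM group (1.47% of all genes tested). Endothelial markers summed to 0.124% to 0.205% in the PM libraries and 0.0972% to 0.137% in the non-PM libraries, with PM 1 highest. The part of these cell types in the Nr1d1 and Nr1d2 values was not tested.

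Dbp (24309), a PAR bZIP factor that activates D-box genes and is among the strongest direct targets of the ARNTL and CLOCK pair, was the steadiest member in CPM. It was measured at 22.3, 21.3 and 29.3 CPM in PM 1, 2 and 3, against 22.3, 25.2 and 23.6 CPM in non-PM 1, 2 and 3. Its highest library exceeded its lowest 1.38-fold, while that ratio was 4.69 for Nr1d1, the widest of the 10 members. In the deposited FPKM values Dbp was not the steadiest. It ran from 10.1 to 16.9, wider for its level than Clock (5.49 to 7.59) and Arntl (13.4 to 18.7). The log2 fold change of Dbp was 0.04 ± 0.17 (SE; unadjusted p = 0.835, edgeR), and its sign turned when PM 3 (-0.12) or non-PM 1 (-0.02) was left out.

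The Period genes, whose proteins form the inhibitory arm with the cryptochromes, differed among themselves. Per1 (287422), which also responds acutely to glucocorticoid and cAMP signals, was measured at 62.5, 67.0 and 109.0 CPM in PM 1, 2 and 3, against 113.9, 118.1 and 102.1 CPM in non-PM 1, 2 and 3. PM 1 and PM 2 lay below all non-PM libraries and PM 3 fell among them. The log2 fold change of Per1 was -0.49 ± 0.25 (SE; unadjusted p = 0.0956, edgeR), and it was -0.78 (unadjusted p = 0.0095, edgeR) without PM 3. Thus the library with the highest Nr1d1 and Nr1d2 was also the PM library with the highest Per1.

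Per2 (63840) was measured at 43.5, 60.1 and 48.0 CPM in PM 1, 2 and 3, against 37.3, 73.5 and 56.2 CPM in non-PM 1, 2 and 3. Both the lowest and the highest library belonged to the non-PM group, and the log2 fold change was -0.14 ± 0.27 (SE; unadjusted p = 0.625, edgeR). Per3 (78962), the Period gene that is dispensable for rhythm in mice, had 18.3, 25.4 and 39.0 CPM in PM 1, 2 and 3, against 21.5, 25.2 and 21.1 CPM in non-PM 1, 2 and 3. Only PM 3 stood clear of the other libraries, and the log2 fold change of 0.29 ± 0.28 (SE; unadjusted p = 0.347, edgeR) was -0.05 without it.

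Cry1 (299691), a strong inhibitor of the ARNTL and CLOCK pair whose own gene also carries RORE control in mice, was measured at 16.0, 20.1 and 13.7 CPM in PM 1, 2 and 3, against 17.4, 18.3 and 35.8 CPM in non-PM 1, 2 and 3. The non-PM 3 library alone stood clear of the rest. The log2 fold change was -0.52 ± 0.32 (SE; unadjusted p = 0.152, edgeR) over all libraries, -0.12 (unadjusted p = 0.573, edgeR) without non-PM 3 and -0.66 (unadjusted p = 0.0367, edgeR) with the muscle covariate.

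Among the activators, Arntl (29657) was measured at 56.4, 50.9 and 45.8 CPM in PM 1, 2 and 3, against 50.9, 38.0 and 70.3 CPM in non-PM 1, 2 and 3. In CPM the PM libraries lay inside the non-PM range, whereas in the deposited FPKM values PM 1 was the highest library (18.7, against 17.3 in non-PM 3). The log2 fold change of Arntl was -0.06 ± 0.24 (SE; unadjusted p = 0.823, edgeR) over all libraries and 0.19 without non-PM 3. Clock (60447), the partner with histone acetyltransferase activity, had 76.2, 68.4 and 78.0 CPM in PM 1, 2 and 3, against 67.0, 51.8 and 84.1 CPM in non-PM 1, 2 and 3. Here too the PM group fell within the non-PM range in CPM, with a log2 fold change of 0.13 ± 0.21 (SE; unadjusted p = 0.536, edgeR). In FPKM, PM 1 and PM 3 (7.59 and 7.57) lay above the non-PM libraries (5.49 to 6.29). Npas2 (316351), a paralogue of Clock that can replace it in mice, had 56.9, 20.3 and 24.5 CPM in PM 1, 2 and 3, against 34.9, 26.9 and 31.3 CPM in non-PM 1, 2 and 3. PM 1 was the highest and PM 2 the lowest of all libraries, so that the log2 fold change of 0.13 ± 0.39 (SE; unadjusted p = 0.752, edgeR) was -0.47 (unadjusted p = 0.0624, edgeR) without PM 1.

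**Figure D3:**
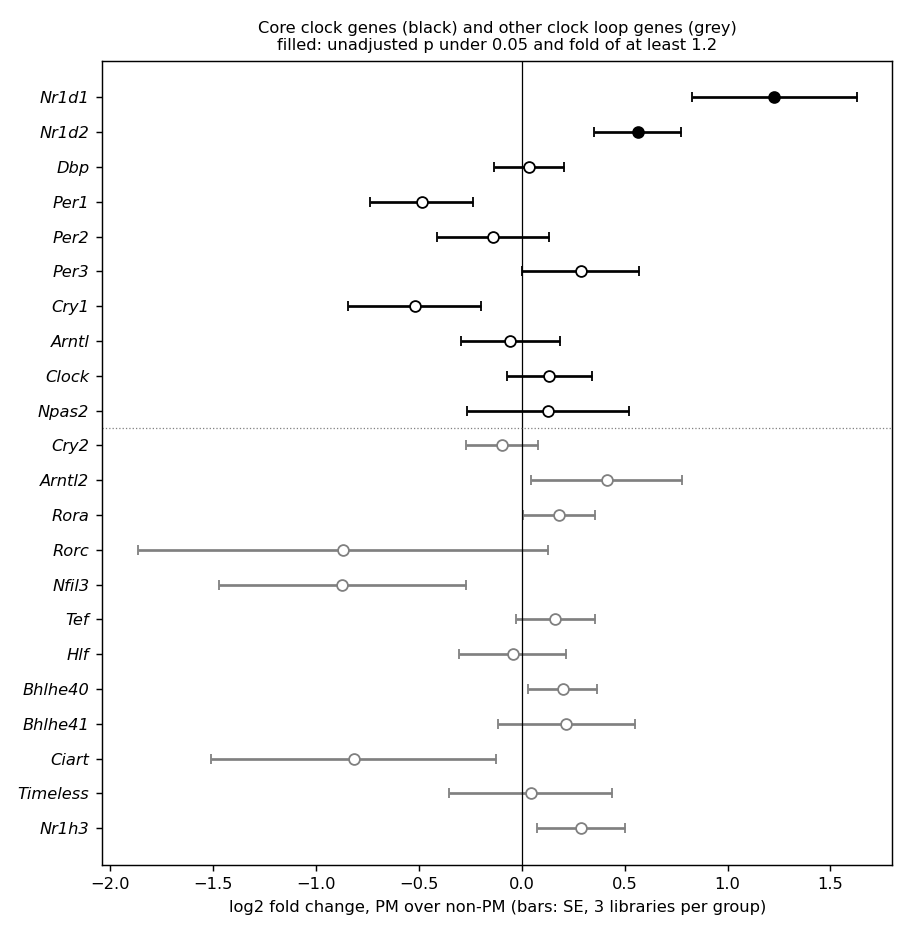
Log2 fold change (PM over non-PM, horizontal axis) with SE bars for the 10 core clock genes (black) and 12 other genes of the clock loop (grey), 3 libraries per group, filled where the relaxed criterion was passed. Only Nr1d1 (1.23) and Nr1d2 (0.56) are filled.

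The promoters bear on how the members connect in the loop, since the REV-ERB proteins act on Arntl through ROREs and the activator pair on E-boxes. RefSeq promoters (GRCr8, 250 bases before to 50 after each start) were found for 9 of the 10 members, 11 promoters in all. None was found for Cry1, which was therefore not searched. Both strands were searched for the canonical E-box CACGTG, its variant CACGTT (E-box prime), the ROREs TAGGTCA and TGGGTCA, the D-box TTANGTAA and the CRE TGACGTCA. These letters were present in 6.42%, 4.83%, 2.63%, 4.09%, 2.24% and 1.83% of all 33469 promoters in that order, and a match is a description and not a site. Matches were found for 3 members, Arntl, Nr1d1 and Per2, and they are shown in capitals below, each stretch written 5′ to 3′ on the strand of its gene. The libraries were aligned to an earlier assembly, so that these coordinates are not those of the deposited table.
Arntl, chr1:176766268-176766327, plus strand, RORE beginning 16 bases before the start: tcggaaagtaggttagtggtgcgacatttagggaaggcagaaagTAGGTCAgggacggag
Nr1d1, chr10:84231953-84232012, minus strand, E-box prime read on the opposite strand, 174 bases before the start: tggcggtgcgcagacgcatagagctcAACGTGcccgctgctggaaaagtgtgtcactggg
Nr1d1, other start, chr10:84229615-84229674, minus strand, canonical E-box 191 bases before the start: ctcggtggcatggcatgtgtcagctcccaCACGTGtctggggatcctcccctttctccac
Per2, chr9:99497044-99497193, minus strand, D-box 192 bases and E-box prime 62 bases before the start: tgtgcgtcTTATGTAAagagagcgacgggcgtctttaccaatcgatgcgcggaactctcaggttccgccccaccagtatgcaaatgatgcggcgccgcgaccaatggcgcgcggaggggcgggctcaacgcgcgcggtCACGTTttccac

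Of the genes with such letters, Nr1d1 passed the relaxed criterion and Arntl and Per2 did not. Nr1d2 also passed it and held none of these letters in its window. Arntl, the member with RORE letters beside its start, differed by -0.06 on the log2 scale between groups, and Nr1d1, which encodes a repressor at ROREs, by 1.23.

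Levels of different genes can be compared only per length, for which the deposited FPKM values were used. Over the 6 libraries Arntl had the highest mean at 15.9 FPKM, followed by Nr1d1 at 14.1, Dbp at 13.4, Per1 at 11.1, Nr1d2 at 10.4, Per2 at 8.10, Npas2 at 7.09, Clock at 6.58, Cry1 at 6.00 and Per3 at 5.46 FPKM. Each neighbouring pair in that order had overlapping ranges over the libraries. Nr1d1 took place 1 of 10 in the PM group, at 20.2 ± 11.2 FPKM, and place 6 in the non-PM group, at 7.99 ± 1.68 FPKM (SD, n = 3 each). No other member moved by more than 3 places.

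To set morning genes against evening genes, the log2 CPM of each gene was centred on its mean over the 6 libraries, and the mean of the day-to-dusk genes (Nr1d1, Nr1d2, Dbp, Per1, Per2 and Per3) was subtracted from that of the light-onset genes (Arntl, Clock, Npas2 and Cry1). This phase contrast was 0.35, -0.06 and -0.73 in PM 1, 2 and 3, against 0.18, -0.26 and 0.51 in non-PM 1, 2 and 3. The groups overlapped, and the order ran from PM 3, the library tilted furthest to day-to-dusk genes, to non-PM 3, tilted furthest to light-onset genes. The group means were -0.15 ± 0.54 for PM and 0.15 ± 0.39 for non-PM (SD, n = 3 each), a difference of -0.29 that was smaller than the spread between replicates. Without PM 3 the difference was -0.0012, and without non-PM 3 it was -0.11.

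**Figure D4:**
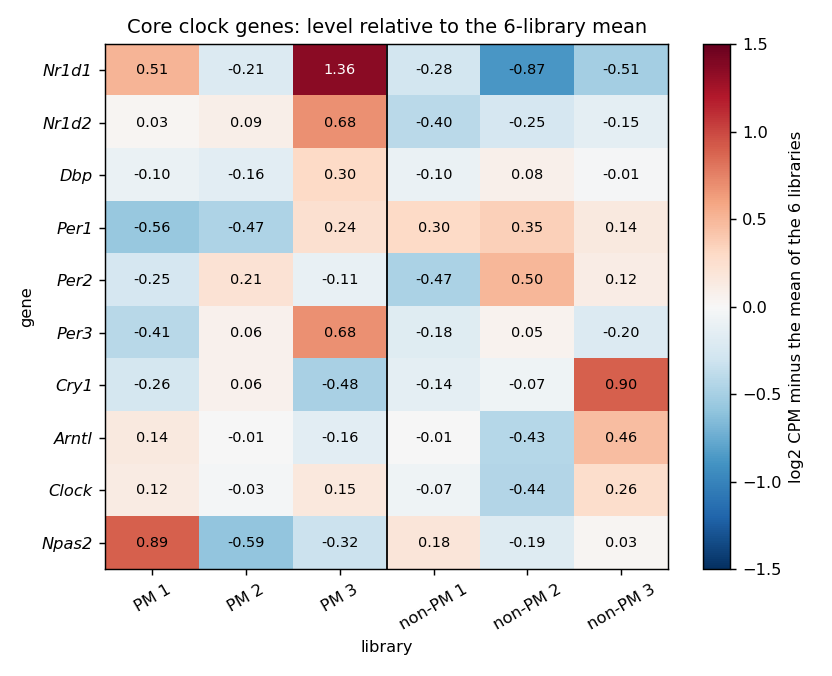
Log2 CPM of each core clock gene minus its mean over the 6 libraries (colour scale and printed values), for PM 1 to 3 left of the line and non-PM 1 to 3 right of it. PM 3 holds high Nr1d1 (1.36), Nr1d2 (0.68) and Per3 (0.68) with low Cry1 (-0.48), and non-PM 3 holds high Cry1 (0.90) and Arntl (0.46) with low Nr1d1 (-0.51).

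The tilt came from a few libraries. PM 3 held the highest value of 4 members (Nr1d1, Nr1d2, Dbp and Per3), all day-to-dusk genes. The non-PM 3 library held the highest CPM of 3 members (Arntl, Clock and Cry1), all light-onset genes, and non-PM 2 that of Per1 and Per2. In FPKM, non-PM 3 was highest for Cry1 but not for Arntl or Clock, for which PM 1 was highest. In PM 3 the centred means were -0.20 for light-onset genes and 0.52 for day-to-dusk genes, whereas in non-PM 3 they were 0.41 and -0.10. Between these libraries Per2 alone among the day-to-dusk genes was lower in PM 3 (-0.11, against 0.12 in non-PM 3), and Per1 differed little (0.24, against 0.14).

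Ratios of members within a library do not depend on its scaling. They were chosen after the values had been seen and are given as a description. The log2 ratio of Nr1d1 over Arntl was -0.34, -0.90 and 0.81 in PM 1, 2 and 3, against -0.97, -1.15 and -1.67 in non-PM 1, 2 and 3. Nr1d1 over Per1 was -0.49, -1.30 and -0.44 in the PM libraries, against -2.13, -2.78 and -2.21 in the non-PM libraries. Nr1d1 over Dbp was 0.998, 0.35 and 1.46 in the PM libraries, against 0.22, -0.55 and -0.10 in the non-PM libraries. In these 3 ratios the groups did not overlap, and Nr1d1 over Per1 had the widest gap. The ratios of Nr1d1 over Nr1d2 and over Cry1 and of Nr1d2, Per1, Per2, Per3 and Dbp over Arntl overlapped, with Dbp over Arntl at -1.08 ± 0.38 in the PM group and -1.12 ± 0.49 in the non-PM group (SD, n = 3 each).

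**Figure D5:**
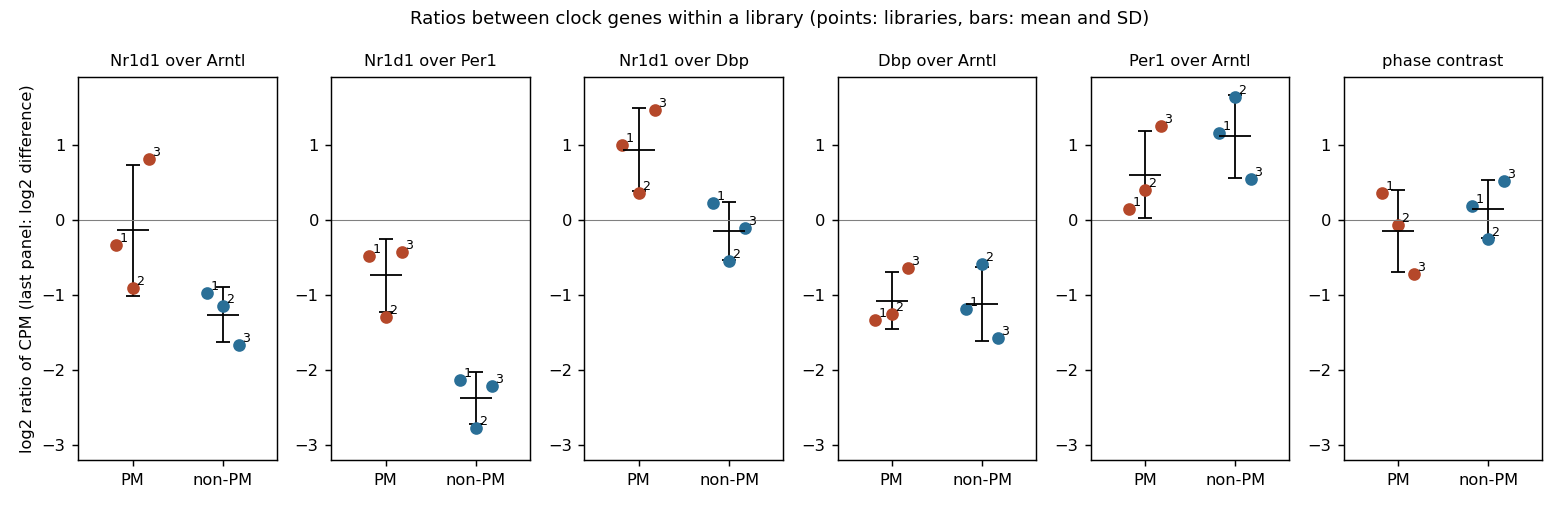
Log2 ratio of CPM between clock genes within each library (points, with bars for mean and SD) for the PM group (red) and the non-PM group (blue), and in the last panel the phase contrast, light-onset minus day-to-dusk genes, in log2 units. The groups separate for Nr1d1 over Arntl, Per1 and Dbp, and overlap for Dbp over Arntl, Per1 over Arntl and the phase contrast.

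The other genes of the loop showed no difference past the relaxed criterion. Of 13 listed, 12 could be tested and 0 passed, with a median log2 fold change of 0.10, while Rorb was too low in counts. Nfil3, the repressor that competes with DBP at D-boxes and is itself repressed by the REV-ERB proteins in mice, had 43.2, 73.1 and 32.9 CPM in PM 1, 2 and 3, against 52.7, 42.9 and 177.4 CPM in non-PM 1, 2 and 3. The non-PM 3 library alone was high, as it was for Cry1, and the log2 fold change of Nfil3 was -0.87 ± 0.60 (SE; unadjusted p = 0.192, edgeR) with that library, 0.045 without it and -1.04 (unadjusted p = 0.0355, edgeR) with the muscle covariate. Ciart, a further repressor of the activator pair, had its highest value there too, with 1.63 to 3.80 CPM in the PM libraries and 1.84 to 9.61 CPM in the non-PM libraries, and leaving that library out turned its log2 fold change of -0.82 to 0.29. Rora, which activates through the ROREs that the REV-ERB proteins occupy, lay at 34.8 ± 5.28 CPM in the PM group and 30.7 ± 4.17 CPM in the non-PM group (SD). Cry2, the other cryptochrome, had 91.7 ± 9.70 CPM in the PM group and 98.1 ± 11.8 CPM in the non-PM group (SD). The PAR bZIP genes Tef and Hlf, relatives of Dbp, had log2 fold changes of 0.16 and -0.04, and the E-box repressors Bhlhe40 and Bhlhe41 of 0.20 and 0.22, of which Hlf and Bhlhe41 turned sign without non-PM 3 (0.16 and -0.028). All of these groups overlapped.

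Genes whose proteins act on the clock proteins were also counted. Of 12 kinases, phosphatases and ubiquitin ligases or proteases, 0 passed the relaxed criterion, at a median log2 fold change of -0.07. Their groups did not overlap for 1 of them, Ppp1ca, with PM below (4.91% of all genes tested). Of 15 cofactors, 0 passed, with a median of 0.07, and the groups did not overlap with PM above for 4 of them (4.77% of all genes tested), Kmt2a, Sfpq and Crebbp included. Kmt2a, a histone methyltransferase that the CLOCK pair recruits in mouse cells, had 90.6, 90.9 and 100.9 CPM in PM 1, 2 and 3, against 70.7, 85.7 and 69.7 CPM in non-PM 1, 2 and 3, with a log2 fold change of 0.32 ± 0.16 (SE; unadjusted p = 0.0854, edgeR), or 0.42 (unadjusted p = 0.0474, edgeR) without non-PM 2. The gap between its groups was smaller than the range of either group.

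Of 17 clock-controlled outputs, 1 was lower in the PM group, Cdkn1a, and the median log2 fold change was 0.03. Cdkn1a encodes the cell cycle inhibitor p21 and is repressed by REV-ERBα in mouse liver. It was measured at 81.4, 53.2 and 51.9 CPM in PM 1, 2 and 3, against 98.7, 97.5 and 90.4 CPM in non-PM 1, 2 and 3. The groups did not overlap, and the log2 fold change was -0.62 ± 0.22 (SE; unadjusted p = 0.0254, edgeR). It did not pass the criterion without PM 2 (-0.52), PM 3 (-0.50), non-PM 1 (-0.61) or non-PM 2 (-0.60), with edgeR p-values of 0.0539 to 0.0983. Over the 53 genes of these 4 lists, 52 could be tested, 0 were higher and 1 was lower, against 1.47% and 1.49% of all genes tested.

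The genes most like a member over the 6 libraries were sought by the root mean square difference of centred log2 CPM among 11719 genes with a mean of at least 1 FPKM. For Arntl they were Nceh1 (0.04), Ano1, Fermt2, Vma21 and Git1, and the nearest to the mirrored profile included Mxd1, Atg7, Lyl1 and Smox. Its partner Clock came only at rank 452 for Arntl, at a difference of 0.15. For Dbp they were Pdzd8 (0.03), Smarcc1, Ahctf1, Skiv2l2 and Pdik1l, and for the mirrored profile Mterf3, Actr5, Top3b, Dhrs13 and Fam212a. For Nr1d1, added after its values were seen, the nearest were Itga1 (0.26), Kcnk3, Adora1, Klhl11 and Soga1, and Nr1d2 came at rank 66. In the other direction, among the genes most like Nr1d2, Nr1d1 came only at rank 6591, behind Per3 (365) and Dbp (787). This measure counts the size of a swing as well as its shape. Nr1d1 ranged 4.69-fold over the libraries and Nr1d2 2.12-fold, so that the rank of Nr1d1 does not show that their shapes differ. With 6 libraries many genes share any profile, so that these ranks are a description.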

How the data were processed

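Per the labels and the study's methods, total RNA of 3 PM and 3 non-PM tendons was sequenced with a stranded mRNA kit as paired ends. Per the submitters' processing notes, reads were checked with FastQC 0.11.7, trimmed with Trimmomatic 0.38 and aligned with HISAT2 2.1.0 to Rnor_6.0. The authors deposited whole-number read counts per gene and FPKM values in 1 table, and the comparison columns of that table (fold changes and p-values) were not used. Of 37991 genes, 12229 had no count in any library. Counts were fitted with edgeR 4.0.16 in R 4.3.3 (filterByExpr, TMM scaling, quasi-likelihood test, two-sided, group as the only term) over 18134 genes with Benjamini-Hochberg adjustment. The relaxed criterion (unadjusted p under 0.05, fold of at least 1.2) follows the limits in the study's methods. CPM values use TMM-scaled totals.

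Alternatives were DESeq2 1.42.0, limma 3.58.1 on log2(FPKM + 1) or log2(FPKM + 0.1), RLE size factors, no filter, a replicate block, a skeletal muscle covariate and each library left out. No pair of libraries agreed within sampling noise (lowest chi-square per degree of freedom 140.9). The members and gene lists were chosen with earlier results of these data known. All 177 listed symbols matched the table, 1 of them through an older symbol. Named from the other clock lists were the up to 6 genes of each list with the smallest p and the main loop genes, of which the text gives those that show the range. Marker genes were fixed for tendon, skeletal muscle, adipocytes, endothelium, macrophages, keratinocytes and Schwann cells. Some genes that these rules name are not reported here.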

Additional observations from a re-analysis of the deposited data

How the results depend on the processing

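The relaxed criterion was passed by 537 genes. The number was 821 with DESeq2, 319 and 292 with limma on log2(FPKM + 0.1) and log2(FPKM + 1), 2125 with the skeletal muscle covariate and 206 (without PM 3) to 1209 (without non-PM 2) with 1 library left out. After adjustment DESeq2 called 13 genes, none of them a core clock gene, against 0 in the other 12 alternatives. The 2 core clock genes past the criterion became 0 to 2 with 1 library left out: Per1 alone (lower) without PM 3, Nr1d1 alone without non-PM 1, and 0 without non-PM 2. Of the other clock genes, 1 (Cdkn1a) passed, against 0 with limma at either pseudocount, 3 (Nfil3, Usp2 and Cdkn1a, all lower) with the muscle covariate and 0 to 3 with 1 library left out. With limma Cdkn1a stood at -0.56 and -0.54 (unadjusted p = 0.0763 and 0.0771).

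Signs turned for 6 core clock genes, none of which passed the criterion in any fit run. With limma on log2(FPKM + 0.1) and log2(FPKM + 1), Arntl was 0.072 and 0.068 and Per2 0.020 and 0.012 on the log2 scale, and Hlf, outside the core, was 0.050 and 0.035. With 1 library left out, Arntl ran from -0.25 to 0.19, Clock from -0.024 to 0.31, Npas2 from -0.47 to 0.39, Per2 from -0.37 to 0.11, Per3 from -0.049 to 0.51 and Dbp from -0.12 to 0.12. The signs of Nr1d1 (0.73 to 1.53), Nr1d2 (0.33 to 0.68), Per1 (-0.78 to -0.34) and Cry1 (-0.71 to -0.12) held in these fits. Among the other named genes, with 1 library left out Nfil3 ran from -1.26 to 0.045, Ciart from -1.20 to 0.29, Hlf from -0.21 to 0.16 and Bhlhe41 from -0.051 to 0.54, and Cry2, Tef, Rora, Bhlhe40, Kmt2a, Cdkn1a and Mt2A kept their signs. Mt2A was -0.63 with limma at either pseudocount (unadjusted p = 0.072). The phase contrast ran from -0.54 to -0.0012 with 1 library left out, and was -0.28 on log2(FPKM + 0.1), -0.22 with medians and -0.17 without Cry1. The causes were not tested.

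Same-numbered libraries of the groups did not deviate together (correlations of -0.17, -0.39 and -0.31). With 3 libraries per group such correlations cannot settle whether libraries were paired, and the labels name no pairs. With a replicate block 155 genes passed the relaxed criterion, 1 of them a core clock gene (Nr1d1, 1.103), Nr1d2 was 0.54 (unadjusted p = 0.0514, edgeR) and Npas2 -0.019.

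With 3 libraries per group the spread between libraries, more than depth, sets the errors given, since each core clock gene had at least 784 counts in each library.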

Other observations

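Per1 and several outputs also respond to glucocorticoids, so a list of 12 glucocorticoid-responsive genes was measured. In the PM group 0 were higher and 1 was lower by the relaxed criterion, Mt2A, a metal-binding metallothionein. Over all genes tested, 1.47% were higher and 1.49% were lower. Mt2A was measured at 27.2, 26.2 and 36.0 CPM in PM 1, 2 and 3, against 39.8, 61.97 and 46.9 CPM in non-PM 1, 2 and 3, with a log2 fold change of -0.73 ± 0.22 (SE; unadjusted p = 0.0135, edgeR), and it did not pass without PM 1 (-0.67) or PM 2 (-0.65). The summed share of the list was 0.106% to 0.158% of counts in the PM libraries and 0.108% to 0.189% in the non-PM libraries. Of 15 immediate-early genes, such as Fos and Egr1, 0 passed the criterion in either direction, with a median log2 fold change of 0.00. Macrophage markers (11 of 12 tested) had 0 that passed and a median of 0.25, and the 8 Schwann cell markers had 0 that passed and a median of -0.55. Keratinocyte markers had 4 of 10 tested, of which 1, Sbsn, was lower in the PM group (1.49% of all genes tested). Sbsn stood at -1.94 on the log2 scale with all libraries and -1.06 (unadjusted p = 0.0390, edgeR) without non-PM 2.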
